A study of Mus musculus with 6 samples.

Results

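Pulmonary neuroendocrine cells are rare airway epithelial cells that lie singly or in clusters called Neuroepithelial Bodies (NEBs) and store amines and peptides in secretory granules. They arise from the same airway progenitors as ciliated and secretory cells, and Notch signaling in neighbouring progenitors is known to restrict their number. The genes described here are 9 genes of these cells, taken by symbol, with no threshold on their values: the transcription factors Insm1 and Neurod1, the granule proteins Chga, Chgb and Resp18, the vesicle protein Syp, the hydrolase Uchl1, the amine enzyme Ddc and the peptide Grp. All 9 had a row among the 21225 genes of the arrays, each as 1 Entrez Gene probe set.

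Whole lungs of C57BL/6 mice were taken at embryonic day 18.5 (E18.5), dissected at or distal to the carina, with 3 RbpjkCNULL lungs, 3 control lungs and 1 Affymetrix Mouse Gene 1.0 ST array per lung. RbpjkCNULL lungs (Shhcre/+; RbpjkFlox/Flox) lose Rbpj, the transcription factor of canonical Notch signaling, where cre is expressed from the Shh locus, which in lung is the epithelium, and the other cells of the lung keep it. For the controls the labels give the Shh cre/+ genotype in one field and wildtype in another, so whether both groups carry the cre allele is not settled, and whether littermates were used is not given in the sources used here. The values are log2 expression values from RMA, in which a difference of 1 is a doubling of the signal, and differences are RbpjkCNULL minus control.

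The array medians lay between 6.43 and 6.50, and 270 genes were called in either direction (246 higher and 24 lower) at an adjusted p under 0.05 from limma. That is 1.27% of all genes, 1.16% higher and 0.113% lower. Rbpj had values of 6.26, 6.17 and 6.18 in RbpjkCNULL lungs, against 6.45, 6.50 and 6.74 in control lungs (difference -0.36, adjusted p = 0.21 from limma). The part of cells outside the epithelium in this signal was not tested. Xist, the RNA of the inactive X chromosome, was low (4.13 to 4.91) in 4 lungs, all 3 RbpjkCNULL lungs and control replicate 3, so that sex is not balanced between the groups. RbpjkCNULL replicate 1 and control replicates 1 and 3 had higher lower quartiles (5.03, 5.11 and 5.08) than the other arrays (4.87 to 4.89). Results are therefore also given for the lungs with low Xist alone and from a fit that holds the lower quartile as a term.

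None of the 9 neuroendocrine genes was called, in a comparison that called 1.27% of all genes, and no member had every RbpjkCNULL lung above every control lung, which held for 4.95% of all genes. Their differences ran from -0.28 for Uchl1 to 0.02 for Resp18, with adjusted p from 0.44 to 0.98 in limma. Of the 9 differences, 8 were below 0, as were 68.1% of all genes, and the median was -0.11, beside -0.05 for all genes. The direction depended on the scaling: with cyclic loess 5 of 9 differences were below 0, and 51.8% of all genes. In whole lung, the number of cells of a type and the RNA per cell cannot be told apart. The paper cites earlier work in which lungs of this mutant had supernumerary ciliated and neuroendocrine cells. Cells were not counted here, and whether the number of neuroendocrine cells differed was not tested.

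Insm1 encodes a zinc finger transcription factor needed for endocrine and neuroendocrine differentiation. It had log2 values of 5.92, 5.83 and 5.77 in RbpjkCNULL lungs and of 6.19, 5.81 and 5.84 in control lungs. The groups overlapped, and control replicate 1 alone lay above the other 5 lungs. The difference was -0.11 (standard error 0.11, 95% interval -0.37 to 0.15, adjusted p = 0.81 from limma), and without control replicate 1 it was 0.01.

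Neurod1 encodes a basic helix-loop-helix factor that acts late in neuronal and endocrine differentiation. Its values were 3.44, 3.41 and 3.28 in RbpjkCNULL lungs and 3.32, 3.43 and 3.61 in control lungs. The lungs of both groups were interleaved, with control replicate 3 the highest. The difference was -0.07 (standard error 0.09, 95% interval -0.29 to 0.15, adjusted p = 0.85).

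Chga encodes chromogranin A, a major protein of dense core granules. It had values of 5.72, 5.39 and 5.38 in RbpjkCNULL lungs and of 5.84, 5.52 and 5.58 in control lungs. In each group replicate 1 was the highest, by more than the difference between the group means. That difference was -0.15 (standard error 0.13, 95% interval -0.44 to 0.14, adjusted p = 0.78), and in the fit with the lower quartile as a term it was 0.00095.

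Chgb encodes chromogranin B, the second granin of these granules. Its values were 4.85, 4.68 and 4.83 in RbpjkCNULL lungs and 5.10, 4.75 and 4.86 in control lungs. The groups overlapped and control replicate 1 was again the highest lung. The difference was -0.12 (standard error 0.10, 95% interval -0.36 to 0.13, adjusted p = 0.79).

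Resp18 encodes an endocrine granule protein. It had values of 3.28, 3.29 and 3.23 in RbpjkCNULL lungs and of 3.27, 3.14 and 3.33 in control lungs, so that the RbpjkCNULL lungs lay within the range of the control lungs. The difference was 0.02 (standard error 0.08, 95% interval -0.16 to 0.19, adjusted p = 0.96), the only one above 0.

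Syp encodes synaptophysin, a membrane protein of small vesicles, and is X-linked. It had values of 5.98, 5.78 and 5.90 in RbpjkCNULL lungs and of 5.92, 5.87 and 6.06 in control lungs. The groups overlapped, and the difference was -0.06 (standard error 0.09, 95% interval -0.26 to 0.14, adjusted p = 0.85).

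Uchl1 encodes the ubiquitin hydrolase known as PGP9.5, which marks neuroendocrine cells and nerves. It had values of 5.94, 6.21 and 6.20 in RbpjkCNULL lungs and of 6.49, 6.38 and 6.32 in control lungs. Every RbpjkCNULL lung lay below every control lung, with RbpjkCNULL replicate 1 the lowest. The difference was -0.28 (standard error 0.10, 95% interval -0.50 to -0.06), which passed limma at an unadjusted p of 0.0208 but not after adjustment (adjusted p = 0.44). Over the 19 other settings that measured it, the difference stayed below 0, from -0.33 to -0.19, with adjusted p from 0.25 to 0.91. Several of these settings change only the test or the genes tested and leave the difference as it is.

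Ddc encodes aromatic L-amino acid decarboxylase, the enzyme that forms serotonin and dopamine from their precursors. It had values of 6.76, 6.89 and 7.12 in RbpjkCNULL lungs and of 6.74, 6.93 and 7.13 in control lungs. Both groups spanned nearly the same range, and the difference was -0.01 (standard error 0.13, 95% interval -0.31 to 0.29, adjusted p = 0.98).

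Grp encodes gastrin-releasing peptide, the bombesin-like peptide of these cells. It had values of 6.46, 6.53 and 6.52 in RbpjkCNULL lungs and of 6.60, 6.61 and 6.71 in control lungs. The RbpjkCNULL lungs all lay below the control lungs, by a narrow margin. The difference was -0.14 (standard error 0.07, 95% interval -0.30 to 0.02, adjusted p = 0.65). It was below 0 under all 20 other settings, several of which leave the difference as it is.

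**Figure D1:**
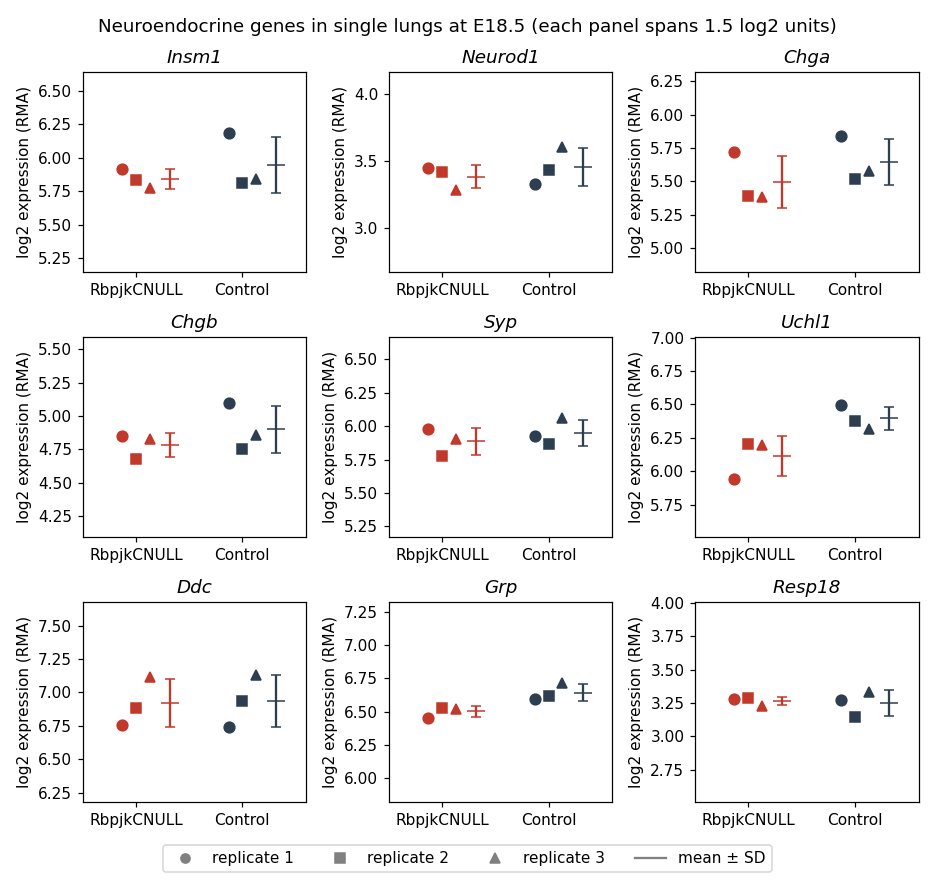
Log2 expression of the 9 neuroendocrine genes in each lung, RbpjkCNULL on the left and control on the right of each panel, with the mean and SD of 3 lungs beside the points. Points of both groups overlap in 7 panels, and in the panels of Uchl1 and Grp every RbpjkCNULL lung lies below every control lung.

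Uchl1 and Grp were thus 2 of 9 genes whose groups did not overlap in the lower direction, which held for 9.28% of all genes, and 1 of 9 passed limma at an unadjusted p under 0.05, against 8.53% of all genes (4.97% lower and 3.56% higher). In exact permutation tests (two-sided) Uchl1 and Grp each reached p = 0.1, below which groups of 3 cannot go, and the other 7 genes had values of 0.4 to 0.9. By the methods' t-test the same 2 genes had an unadjusted p under 0.05, 0.0492 for Uchl1 and 0.0321 for Grp, against 8.33% of all genes, and adjusted p of 0.60 and 0.53. Across the 6 lungs the pattern of Uchl1 was most like those of Shmt1 (Pearson r = 0.997), Olfr916 (0.988) and Emilin1 (0.983), and 167 genes had an r over 0.9, a description of 6 points that share the difference between groups.

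The precision of each gene limits what these lungs could show. To be called, a gene needs an unadjusted p of at most 0.00063 in limma. The standard errors and intervals given here are those of limma, which draw on the spread of all genes. With them the 9 genes would have needed differences of 0.39 (Grp) to 0.72 (Ddc), or 1.31-fold to 1.65-fold. The upper ends of the 95% intervals were at most 0.29 (Ddc), a 1.22-fold higher signal, and for the 2 transcription factors they were 0.15 each. Measured increases below the size a gene needed, 1.31-fold to 1.65-fold, would not have been called at this number of lungs. The intervals concern the signal of the whole lung, in which neuroendocrine cells are a small part.

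**Figure D2:**
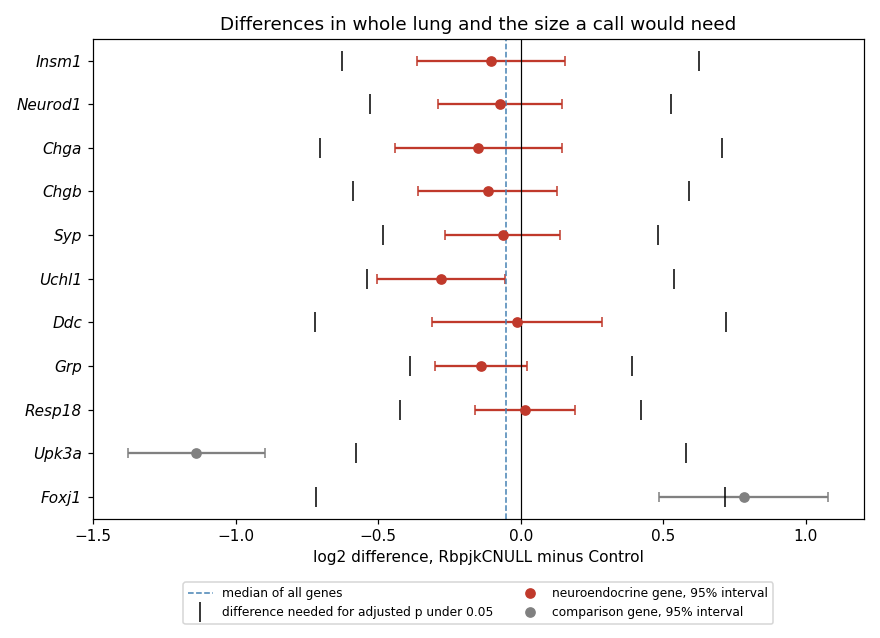
Log2 differences, RbpjkCNULL minus control, of the 9 neuroendocrine genes and of Upk3a and Foxj1, with 95% intervals, the difference each would have needed for an adjusted p under 0.05 (vertical ticks) and the median of all genes (dashed line). All 9 neuroendocrine genes lie inside their ticks, while Foxj1 lies above and Upk3a below its own.

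Levels in whole lung also bear on detection. As a gauge, the 1294 olfactory and vomeronasal receptor genes of the arrays were used, which lung is not known to transcribe widely. Their 95th percentile lay between 5.25 and 5.65 in the 6 lungs. Neurod1, Chgb and Resp18 lay at or below it in every lung. For Neurod1 a median of 47.6% of receptor genes were higher, for Resp18 55.3% and for Chgb 12.7%. Insm1, Chga, Syp, Uchl1, Ddc and Grp lay above it in every lung, and of these Chga had the largest share of receptor genes above it, 3.32% to 4.64%. Among all genes, Ddc ranked highest, at a median percentile of 58.5, and Grp was at 52.3, so that no member was among the higher signals of the lung. Probe sets differ in affinity, so these ranks describe the signal and are no test of detection.
A second gauge comes from genes that some lungs lack. In control replicates 1 and 2, the lungs with high Xist, 3 genes of the Y chromosome (Kdm5d, Eif2s3y and Uty) still gave values of 3.16 to 4.14, which is what these probe sets read without their transcript. Over the 6 lungs Neurod1 lay between 3.28 and 3.61 and Resp18 between 3.14 and 3.33. Where a signal is mostly background, a change in transcript number gives a smaller difference on the log2 scale, and how far this holds for each of the 9 genes was not tested.

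**Figure D3:**
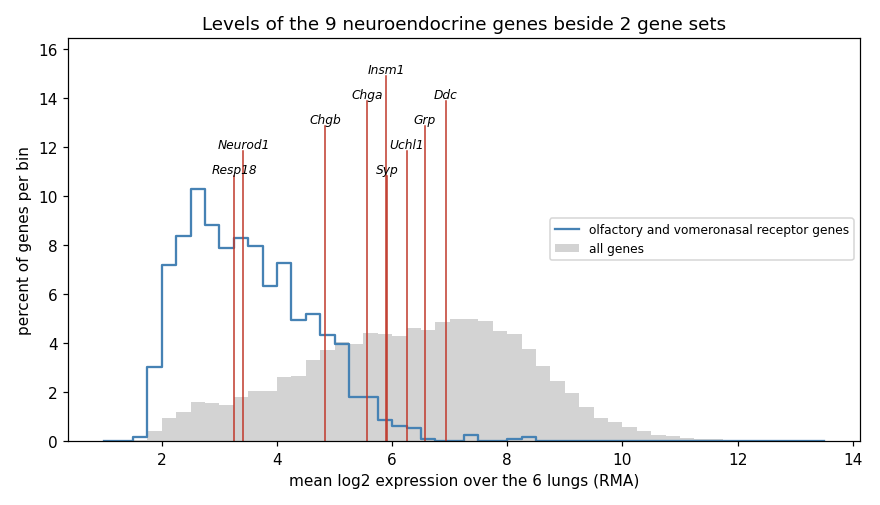
Distribution of the mean log2 expression over the 6 lungs for all 21225 genes (grey bars) and for the 1294 olfactory and vomeronasal receptor genes (blue line), in percent of genes per bin, with the 9 neuroendocrine genes as red lines. Resp18 and Neurod1 stand within the bulk of the receptor genes, and Ddc and Grp lie beyond nearly all of them.

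The promoters of the granins are shown because Chga and Chgb encode the major granule cargo and because the study concerns the DNA-binding partner of Notch. Windows of 250 bases before the RefSeq start were used for 7 of the 9 genes. Insm1 had no window, and Grp was left out of the search. The windows were searched on both strands for the core of the Rbpj site (TGGGAA) and an E-box read by proneural factors (CAGCTG). The half-site of the cAMP response element (TGACGT) was also searched for, and matches are in capitals below. The Chga window lies at chr12:102554691-102554940 and the Chgb window at chr2:132781392-132781641 (GRCm38.p6, both on the + strand).
Chga: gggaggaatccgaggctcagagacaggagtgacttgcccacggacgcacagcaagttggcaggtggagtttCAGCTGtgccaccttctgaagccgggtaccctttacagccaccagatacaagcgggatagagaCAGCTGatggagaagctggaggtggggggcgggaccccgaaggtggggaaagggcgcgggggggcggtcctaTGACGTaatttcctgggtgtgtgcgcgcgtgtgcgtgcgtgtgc
Chgb: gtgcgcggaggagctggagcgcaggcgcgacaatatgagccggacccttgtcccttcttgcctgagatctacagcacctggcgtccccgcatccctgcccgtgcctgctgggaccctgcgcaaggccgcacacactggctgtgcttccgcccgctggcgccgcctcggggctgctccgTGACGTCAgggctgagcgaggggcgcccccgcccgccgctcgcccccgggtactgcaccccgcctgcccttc
Among the 7 genes the half-site was in the windows of Chga and Chgb only. In Chgb its matches on both strands overlap in 1 palindrome of 8 bases. It was in 6.47% of all 32851 windows. The E-box was in the windows of Chga (2 matches) and Resp18 (1 match) and in 13% of all windows. The Rbpj core was in none of the 7 genes' windows and in 21.6% of all windows. These matches describe letters of the reference genome and not binding.

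Beyond the 9 genes, 79 of 83 further genes had a row, in 6 lists of neuroendocrine cell genes by role and 1 list of receptors for their peptides, and none was called, in a comparison that called 1.27% of all genes. The other 4 were not analysed here. Only 1 of 79 had an unadjusted p under 0.05, Rab3c, against 8.53% of all genes. On the deposited values 67 of 79 differences were below 0 (64 of 74 without the receptors), as were 68.1% of all genes, and with cyclic loess 41 of 79 were, beside 51.8% of all genes. The median was -0.08, beside -0.05 for all genes. Among 13 transcription factors the differences nearest to a call were -0.17 for Neurod2 (adjusted p = 0.64 from limma) and -0.24 for Nkx2-2, a homeobox factor of endocrine cells (adjusted p = 0.66). Among 11 genes of granule cargo and prohormone processing the smallest adjusted p was 0.64, for Scg5, the chaperone of prohormone convertase, which had a difference of -0.20. Scg3, another granin, had -0.14.
The vesicle release machinery held the gene closest to a call. Rab3c, a small GTPase of secretory vesicles, had values of 3.78, 3.70 and 3.57 in RbpjkCNULL lungs and of 4.01, 4.08 and 4.07 in control lungs. All lay within the 3.16 to 4.14 that the 3 Y-linked probe sets read without their transcript. They were also below the 95th percentile of the receptor genes (5.25 to 5.65), and whether Rab3c was detected was not tested. The groups did not overlap, and the difference was -0.37 (standard error 0.08, adjusted p = 0.0995), which passed the threshold of 0.05 in 1 other setting, array weights (adjusted p = 0.0386). All 17 genes of this list had differences below 0 on the deposited values (median -0.10), where 68.1% of all genes did. With cyclic loess 10 of 17 were below 0, against 51.8% of all genes. On the deposited values 1 of 17 had an unadjusted p under 0.05 in limma, against 8.53% of all genes. Cplx1, a regulator of exocytosis, had -0.21 (adjusted p = 0.67).
Of 9 genes of amine synthesis and storage, 8 had differences below 0 on the deposited values, against 68.1% of all genes. With cyclic loess 3 of 9 were below 0, against 51.8% of all genes. Gad1, which forms GABA, had -0.11 (adjusted p = 0.80) and Dbh, which forms noradrenaline, had -0.07 (adjusted p = 0.81). Of 12 neuropeptides none was called, in a comparison that called 1.27% of all genes. Nmb, the other bombesin-like peptide, had -0.16 (adjusted p = 0.67) and Npy had -0.27 (adjusted p = 0.71). Among 5 peptide receptors, which the target cells carry, Brs3 had -0.18 and Nmbr, the receptor of neuromedin B, had -0.21. Among 12 surface and other markers, the adhesion molecule Ncam1 had -0.21 (adjusted p = 0.67) and Bex2 had 0.24 (adjusted p = 0.71).

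Notch ligands and Hes genes that are linked to neuroendocrine cells were not called either (0 of 9, against 1.27% of all genes). Jag1, a ligand, had a difference of 0.20 (adjusted p = 0.47) with no overlap between groups, which held in the higher direction for 4.95% of all genes. Hes5, a target of Notch, had -0.19 (adjusted p = 0.63).

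Several of the 9 genes are also used by nerves, so markers of neurons and glia of the lung were read beside them. Of 12 measured, 0 were called, against 1.27% of all genes, and 10 had differences below 0, against 68.1% of all genes, while with cyclic loess 6 of 12 were below 0, against 51.8%. The median was -0.09, with values of -0.25 for Gap43, a protein of growing axons (adjusted p = 0.40), and -0.19 for Chrna3. The 2 genes above 0 were Stmn2 (0.21) and S100b (0.07). Gap43 had values of 7.02, 7.05 and 7.11 in RbpjkCNULL lungs and of 7.18, 7.41 and 7.33 in control lungs. Its groups, like those of Uchl1, did not overlap, which held in the lower direction for 9.28% of all genes. The part of nerves in the values of Uchl1 was not tested. The 5 markers of adrenal medulla had differences of -0.19 to -0.07, among them Pnmt, which forms adrenaline (-0.11). None was called, against 1.27% of all genes. On the deposited values 5 of 5 were below 0, against 68.1% of all genes, and with cyclic loess 4 of 5, against 51.8%. Th and Dbh of this list are also counted with amine synthesis and storage.

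Other epithelial genes show what the same arrays did call. Of 11 measured genes of ciliated cells, 10 rose, by 0.50 (Tekt1) to 1.24 (Rsph4a) with Dnah5, Dnah9, Dnaic1, Tekt2, Rsph1, Ccdc39, Hydin and Foxj1 between them, and the remaining gene, Spag6, had a difference of 0.14 (adjusted p = 0.71). Foxj1, the master regulator of motile cilia, had values of 7.98, 7.89 and 7.95 in RbpjkCNULL lungs and of 6.86, 7.26 and 7.35 in control lungs (difference 0.78, adjusted p = 0.0333 from limma). All 5 secretory cell genes fell. Scgb1a1 had a difference of -5.37, Scgb3a2 of -3.95, Cyp2f2 of -2.07 and Scgb3a1 of -0.69. Scgb1a1, Scgb3a2, Cyp2f2 and Upk3a were picked by the study from these same lungs, and their fall is no independent evidence. Upk3a, a uroplakin of the secretory cells around NEBs, had values of 5.33, 5.18 and 5.22 in RbpjkCNULL lungs and of 6.35, 6.58 and 6.22 in control lungs (difference -1.14, adjusted p = 0.0029). Pan-epithelial and alveolar genes had medians of 0.01 and 0.05, with 0 of 12 and 0 of 10 called. Krt8, a keratin of simple epithelia, had 0.30 (adjusted p = 0.41), Elf3 had -0.25 (adjusted p = 0.48), Lamp3, a marker of type II cells, had 0.28 (adjusted p = 0.46) and Pdpn, a marker of type I cells, had -0.18 (adjusted p = 0.69). With Xist as a covariate, or in the lungs with low Xist alone (3 against 1), 0 ciliated and 0 secretory cell genes were called.

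**Figure D4:**
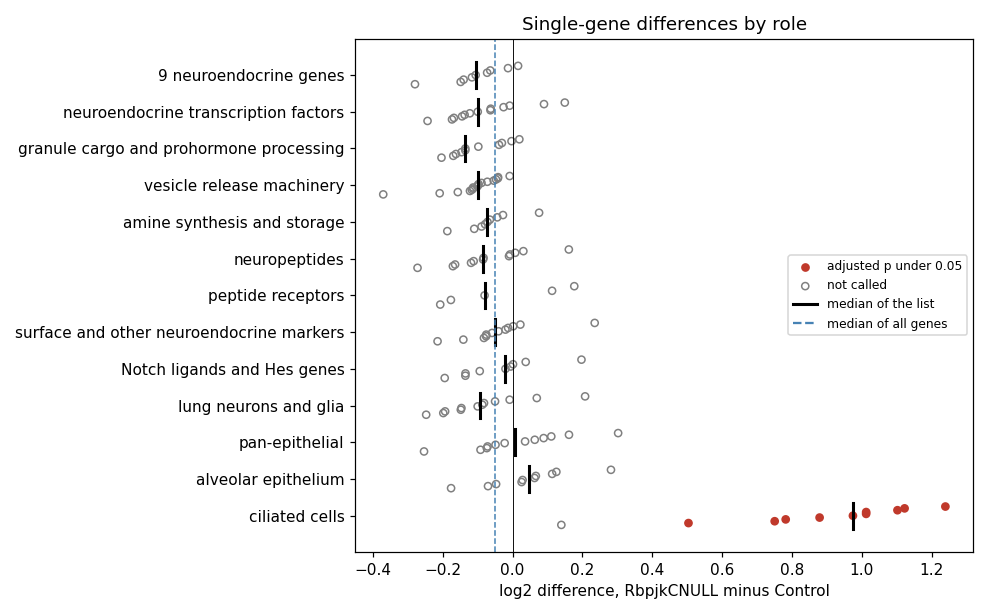
Log2 differences, RbpjkCNULL minus control, of single genes (circles, filled where the adjusted p was under 0.05) by list, with the median of each list (bar) and of all genes (dashed line). No gene of the neuroendocrine, neuronal, pan-epithelial or alveolar lists is filled, and 10 of 11 ciliated cell genes are.

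Within the 4 lungs with low Xist, 3 RbpjkCNULL lungs and control replicate 3, the differences of the 9 neuroendocrine genes ran from -0.23 to -0.0015. In the same lungs 77.3% of all genes had differences below 0, with a median of -0.09. This comparison has 1 control lung, which is assumed to vary as the RbpjkCNULL lungs do. It called 0 of all genes, so it says nothing about whether a neuroendocrine gene differs. In the fit with the lower quartile as a term the differences ran from -0.33 to 0.07 and the lowest adjusted p was 0.25, with 325 of all genes called and none of the 9.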

How the data were processed

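Total RNA of 6 whole lungs was amplified, labelled and hybridised, 1 array per lung. The paper names a core facility at Boston University for labelling and hybridisation. The deposited values are log2 expression values that the authors made with RMA, which corrects the background, equalises the distributions of the arrays and summarises probes per Entrez Gene, under R 2.12.0 according to their processing notes. They were used without further scaling or filter. The platform annotation gave 1 symbol for 20239 of 21225 genes and no symbol for the remaining 986. Of 164 symbols on the lists, 155 had a row.

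RbpjkCNULL and control lungs were compared over all genes with limma 3.58.1 under R 4.3.3 (lmFit and eBayes, no trend), with Benjamini-Hochberg adjustment over all genes, and a gene is called at an adjusted p under 0.05. Exact permutation tests over the lungs were two-sided. The difference needed for a call is the standard error times the t value at the largest p that was called. Fits were tested on simulated data. The methods' t-test was an alternative. The labels do not tie lungs to litters, so p-values measure the spread between these lungs, and their number limits the precision.

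Genes named are the 9 genes, every gene called on a list or, with none called, the 2 with the smallest p, Rbpj, Xist, Foxj1 and Upk3a, and the 3 genes most correlated with the gene of smallest p. Spag6, Stmn2, S100b and the Y-linked genes fall outside this rule and were named after their values were seen. The genes, lists, rule and alternatives were chosen with earlier results of these data known. Promoter windows are from RefSeq (GRCm38.p6), and the arrays have no genome build.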

Additional observations from a re-analysis of the deposited data

How the results depend on the processing

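None of the 9 neuroendocrine genes was called under any of 20 other settings, in which single differences ran from -0.33 to 0.12 and the lowest adjusted p was 0.25. Of 170 values, 153 kept their sign and 17, none of them called, changed it. These were Resp18 with array weights (-0.011), without control replicate 2 (-0.038), with the Xist covariate (-0.085) and in the lungs with low Xist (-0.067), Ddc with median centring (0.0051), cyclic loess (0.020) and without RbpjkCNULL replicate 1 (0.068), RbpjkCNULL replicate 2 (0.0039) or control replicate 3 (0.084), Neurod1 with quantile normalization (0.021), cyclic loess (0.019) and without control replicate 3 (0.0039), Syp with cyclic loess (0.011) and the lower quartile (0.0047), Insm1 without control replicate 1 (0.014) and with Xist (0.010), and Chga with the lower quartile (0.00095). Leaving out single lungs moved Chga over -0.26 (without RbpjkCNULL replicate 1) to -0.052 (without control replicate 1), Chgb over -0.19 (without control replicate 2) to -0.018 (without control replicate 1), Syp over -0.11 (without RbpjkCNULL replicate 1) to -0.0089 (without RbpjkCNULL replicate 2), Insm1 over -0.17 to 0.014, Neurod1 over -0.14 to 0.0039, Ddc over -0.11 to 0.084 and Resp18 over -0.038 to 0.057. Of the 9 genes, 6 passed a filter at the 25th percentile of mean level and 2 passed one at the median.

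Over all genes 270 were called. The methods' t-test called 8 (1769 at an unadjusted p under 0.05), and limma with Xist as a covariate 0 (1418 unadjusted). In the lungs with low Xist the lone control lung is assumed to vary like the RbpjkCNULL lungs. Limma at an adjusted p under 0.28, the methods' threshold without the methods' t-test and fold limit, gave 619. Leaving out single lungs gave 139 to 236 calls, with 139 without RbpjkCNULL replicate 2 and 148 without RbpjkCNULL replicate 3. Of 11 ciliated cell genes the t-test called 1, and limma with Xist or in the lungs with low Xist 0 (10 unadjusted in each). Of 5 secretory cell genes the t-test, the Xist covariate and the lungs with low Xist called 0 (5 unadjusted in each), and the filter at the median called 3, which left 3 to test. Of the further neuroendocrine genes, array weights called 1 and the threshold of 0.28 gave 1, in both cases Rab3c.

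Whether the replicate numbers pair the lungs was not settled. Deviations within a group of 3 lungs sum to 0, so the correlations below depend on one another. The correlation of deviations from the group means was 0.49 and 0.31 for numbers 1 and 2 and -0.087 for number 3, and RbpjkCNULL replicate 3 correlated best with control replicate 2 (0.41). With the replicate number as a block 304 genes were called and 0 of the 9, with adjusted p of 0.33 for Uchl1. At an unadjusted p under 0.05 limma gave 2839 genes with the block and 1810 without it.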
